A study of Mus musculus with 4 samples.

Results

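The comparison described here sets the heart array of the Tbx6 vector against the heart array of phosphate-buffered saline (PBS), both taken 7 days after injection. It takes in every probe set that carries a gene symbol, 19572 of the 28846 rows of the value table, and 2 of the 4 arrays of the series. The other 2 arrays carry the same pair of injections at day 30 and are quoted only side by side. They differ from the day 7 arrays in age, so they cannot decide which day 7 reading was out of place. All animals were outbred ICR (Jcl:ICR) mice, injected on postnatal day 1 with 5 µl of a viral vector carrying Tbx6 or with PBS. One label field places the injection under the dorsal skin and another speaks of introduction into the heart. The control received no vector, so vector and transgene cannot be told apart. The promoter that drove Tbx6, the number of hearts behind each RNA and their litters are not stated in the labels.

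Each group was 1 array, so there is no spread between animals. Every value below is a size without a test, and no difference is shown to exceed the variation between hearts. Values are expression readings on a log2 scale, and a difference is the Tbx6 reading minus the PBS reading. A reading at or below the highest antigenomic background probe set of its array (5.80 after PBS and 5.77 after Tbx6) is called at background and was raised to that level. Where 1 of both readings was at background the difference is therefore a bound, written "at least", and where both were at background none is given.

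In the embryo Tbx6 acts as a transcription factor in the presomitic mesoderm, where it directs the formation of somites and paraxial muscle and restrains neural fate. T-box factors bind DNA through a shared domain, and other members of the family, such as Tbx5 and Tbx20, build and maintain the heart. A mouse heart in its first weeks is in transition: its muscle cells leave the cell cycle, exchange fetal for adult contractile proteins and come to burn fatty acids.

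At day 7, 9241 probe sets had at least 1 reading above background, 8579 of them on both arrays and 662 on 1 array alone. The remaining 10331 were at background on both. Of the 9241, 602 (6.51%) were at least 1.5-fold higher after Tbx6 and 721 (7.8%) at least 1.5-fold lower. At 2-fold the counts were 98 higher (1.06%) and 122 lower (1.32%). The median difference was -0.02, and 95% of the probe sets lay between -0.85 and 0.80. These shares are the background against which each gene group below is set.

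Spiked control transcripts show how far 2 arrays differ apart from the heart RNA. Over 4 labelling spikes the difference ran from -0.12 to 0.28, and over 4 hybridisation spikes from 0.10 to 0.43, all of the latter higher on the Tbx6 array. No spike passed 1.5-fold. Other measures rest on heart transcripts and include real differences between them. Among 19 genes with more than 1 counted probe set, the gap between probe sets of a gene had a median of 0.35 and reached 2.41. The share of probe sets past 1.5-fold moved with their level. For mean readings between 7 and 8 it was 8.62% higher and 9.79% lower, and for mean readings above 14 it was 2.95% each way. Readings at the upper end could hardly differ: Fabp3, Atp2a2 and Tpm1, abundant genes of heart muscle, stood at 19.93 on both arrays.

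**Figure D1:**
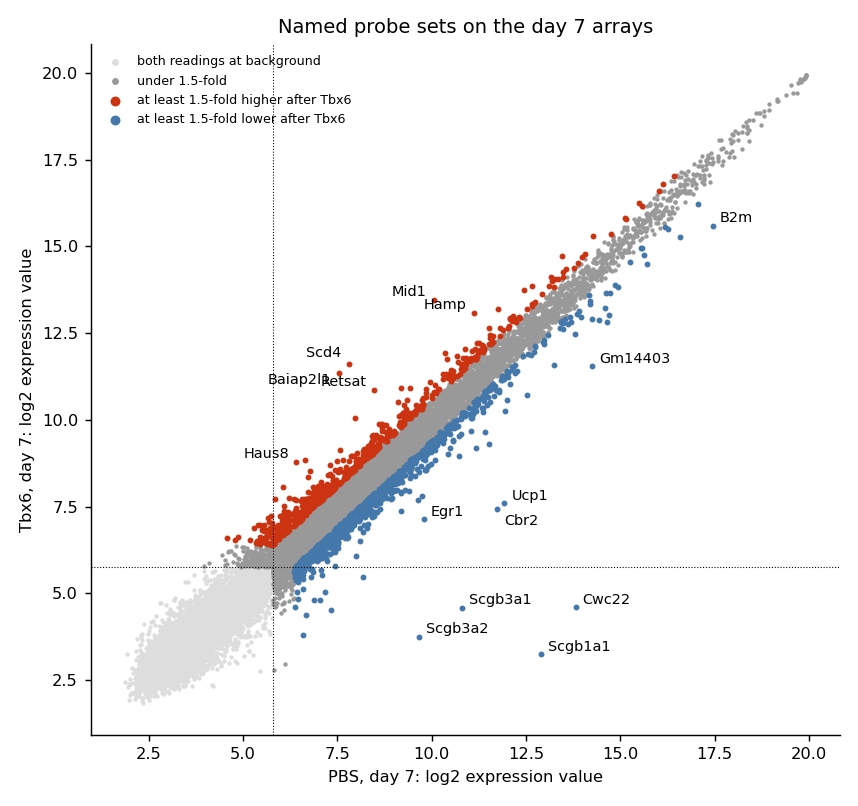
Log2 reading of each named probe set after PBS (x axis) and after Tbx6 (y axis) at day 7, 1 point a probe set, with dotted lines at the background of each array. Red points are at least 1.5-fold higher and blue points at least 1.5-fold lower after Tbx6. Cwc22, Scgb1a1, Scgb3a1 and Scgb3a2 lie far above background after PBS and below the dotted line of the Tbx6 array.

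The readings of the Tbx6 probe set itself, 3.70 after PBS and 4.14 with the vector, were both at background. Whether its probes cover the transgene is not given, so it checks nothing about the labels. Of 16 measured T-box genes, 10 were at background on both arrays. Tbx20, a T-box factor of heart muscle cells, read 16.57 after PBS and 16.53 after Tbx6. Tbx5, which patterns the left ventricle and conduction system, read 9.59 and 9.70. The 6 counted T-box genes differed by -0.04 to 0.11, and none passed 1.5-fold.

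Of 20 genes of the presomitic mesoderm and the Tbx6 programme, 16 were at background on both arrays. Among the 4 others 0 were higher and 1 was lower past 1.5-fold. That was Meox2, a homeobox gene of somites and blood vessels, at 9.96 after PBS and 9.35 after Tbx6. Its difference was -0.61, close to the 1.5-fold line of 0.585 in size.

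Both day 7 arrays carried transcripts of the Y chromosome. Eif2s3y, a translation factor, read 11.18 after PBS and 10.96 after Tbx6, and Uty, a histone demethylase, read 10.34 and 10.76. At day 30 Eif2s3y read 2.15 and 2.16 and Uty 3.43 and 3.28, all at background. Eif2s3y and Uty were thus readable on the day 7 arrays and at background on the day 30 arrays. Age and the sex of the hearts cannot be told apart between the days. None of the 7 counted sex-linked genes passed 1.5-fold between the injections at day 7.

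The lowest differences belonged to a few genes with large readings on the PBS array. Cwc22, a factor that loads the exon junction complex during splicing, read 13.81 after PBS and 4.59 after Tbx6, which was at background. Its difference was at least -8.04, or at least 264-fold lower. At day 30 both of its readings, 5.29 and 4.35, were at background too, so it was readable on the PBS array of day 7 alone. Part of the mouse Cwc22 locus is known to occur in variable copy number, and outbred mice can differ in it. Whether copy number has a part in this difference was not tested.

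Genes of the secretory lining of the airways came next. Scgb1a1, the secretoglobin that marks club cells, read 12.89 after PBS and 3.25 after Tbx6, a difference of at least -7.12 (at least 139-fold). Scgb3a1 read 10.80 and 4.59 (at least -5.03), and Scgb3a2 read 9.65 and 3.74 (at least -3.88). These 3 secretoglobins were readable after PBS at day 7 and at background on the other 3 arrays. Cyp2f2, the cytochrome that club cells use to oxidise foreign compounds, read 8.17 and 5.48 (at least -2.40).

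Cbr2, a carbonyl reductase of the airway lining, read 11.73 after PBS and 7.43 after Tbx6, a difference of -4.30. Unlike the secretoglobins it was high on both day 30 arrays, at 12.32 and 12.11, and it read lowest of all arrays after Tbx6 at day 7. Of 15 measured genes of club and ciliated cells, 9 were counted. Of these 0 were higher and 6 were lower past 1.5-fold, against 7.8% lower over all probe sets, and their median was -2.40. Scgb1a1, Scgb3a1, Scgb3a2, Cyp2f2, Bpifb1 and Sec14l3 were counted through their PBS reading alone, so they could not come out higher. Over the members above background on both arrays, which were Cbr2, Tppp3 and Aldh1a1 alone, the median was -0.76. Only Cbr2 and Tppp3, a tubulin-binding protein, passed with both readings above background. Tppp3 read 8.78 and 8.02.

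The airway genes did not come with genes of the gas-exchanging lung. Of 13 measured genes of alveolar cells, 12 were at background on both day 7 arrays. Sftpc, the surfactant protein of alveolar type II cells, read 3.39 and 3.75. Hopx alone was counted, and it is also a heart muscle gene. Of the airway list, Bpifa1, Dynlrb2, Gabrp and Cldn10 were at background on every array. Summed over its 15 measured members, the airway list stood at 13.86 after PBS and 9.84 after Tbx6 at day 7 (log2 of the sum), and at 12.51 and 12.39 at day 30, where Cbr2 made up most of it. In whole-tissue RNA fewer cells of a type and less RNA per cell cannot be told apart, and the part that tissue attached to the heart plays in these values was not tested.

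A few genes known from fat were among the lowest differences. Ucp1, the proton channel by which brown fat makes heat, read 11.92 after PBS and 7.60 after Tbx6, a difference of -4.32. Dio2, which activates thyroid hormone in brown fat, read 6.45 and 5.31 (at least -0.68). Cidea, a lipid droplet protein of brown fat, went the other way within 1.5-fold, at 8.45 and 8.98. In all, 2 of the 6 counted brown fat genes were lower and 0 higher, against 7.8% and 6.51% over all probe sets. Their median was -0.34, and Prdm16, Zic1, Elovl3 and Otop1 were at background on both arrays.

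Among general fat genes, Car3, a carbonic anhydrase abundant in fat, read 11.51 after PBS and 9.30 after Tbx6 (-2.22). Adipoq, which encodes the hormone adiponectin, read 7.98 and 6.08 (-1.91). Cidec, which enlarges lipid droplets, read 7.10 and 6.13 (-0.96). These genes ran the other way at day 30, when Car3 read 11.53 after PBS and 13.01 after Tbx6 and Adipoq 7.49 and 9.83. The list's median at day 7 was -0.26. Of its 10 counted genes, 3 were lower and 1 was higher, against 7.8% and 6.51% over all probe sets. The higher one was Pnpla2, the lipase that opens fat breakdown and also works in heart muscle, at 14.06 and 14.79. Fabp4, the fatty acid carrier that capillary cells share with fat cells, read 17.10 and 17.06. Summed over its members the list stood at 17.62 after PBS and 17.59 after Tbx6 (log2 of the sum), and the brown fat list at 15.16 and 15.18. Fabp4 in the former and Cox7a1 and Cox8b in the latter, all of them also expressed in heart tissue, had the highest readings. The part of attached fat in these values was not tested.

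**Figure D2:**
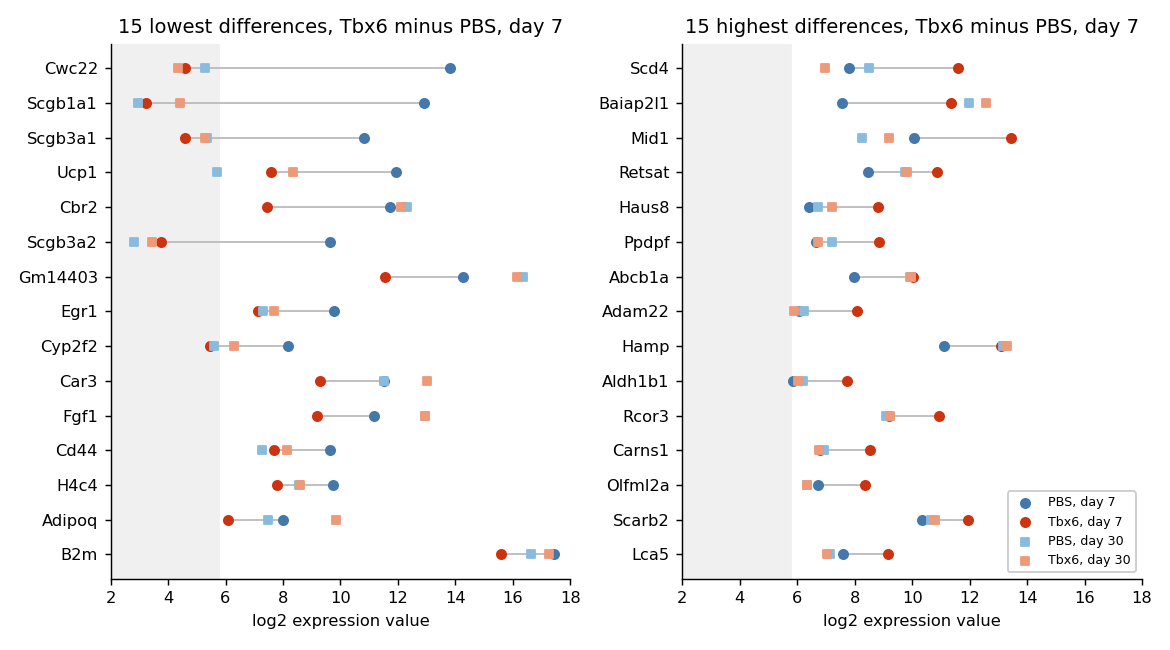
Log2 readings of the 15 probe sets with the lowest and the 15 with the highest floored differences at day 7, on all 4 arrays. Circles are day 7, joined by a grey line, squares are day 30, and the shaded zone lies at or below the background of the Tbx6 array of day 7 (5.77). The 3 secretoglobins and Cwc22 are above the shaded zone after PBS at day 7 alone, while for Scd4, Mid1 and Haus8 the Tbx6 array of day 7 stands highest.

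The next low group was the immediate-early genes, which growth factors, stretch and tissue handling switch on within minutes through serum response factor and other ready-made regulators. Egr1, a zinc finger transcription factor, read 9.79 after PBS and 7.13 after Tbx6, a difference of -2.66. Its day 30 readings were 7.30 and 7.67, so the PBS array of day 7 read highest of all arrays. Myc, the transcription factor of cell growth, read 7.45 and 5.78 (-1.67), and 5.93 and 5.68 at day 30. Egr1 and Myc thus both read highest after PBS at day 7.

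Ccn1 and Ccn2, matrix-associated proteins that respond to stretch and to the YAP pathway, read 11.95 and 11.99 after PBS and 10.25 and 10.58 after Tbx6. Their differences were -1.70 and -1.41. Dusp1, a phosphatase that shuts off MAP kinases, read 14.71 and 13.66, against 14.70 and 14.71 at day 30. Here the Tbx6 array of day 7 read lowest of all arrays. Jun and Jund, the DNA-binding partners of the AP-1 complex, differed by -0.94 and -0.78. Ier5 and Fosl2 had bounds of at least -1.05 and at least -1.01, and Klf6 differed by -0.65.

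Of 28 measured immediate-early genes, 18 were counted, of which 0 were higher and 10 lower, with a median of -0.71. Over all probe sets 6.51% were higher and 7.8% lower. Of members above background on both arrays, Klf2 was the farthest on the other side, at 0.50, below the 1.5-fold line. Ier3 had a bound of at least 0.45, which cannot place it on either side of that line. It was not counted as higher. Fos, Fosb, Junb, Ier2 and Nr4a1 gave no value, since both of their readings were at background. At day 30, 5 of 18 counted members were higher after Tbx6 and 0 were lower, against 5.99% and 5.27% of all 8939 probe sets counted then. A CArG box, the 10-letter site of serum response factor, was found on either strand in 1.86% of the promoters of counted genes, taken as 250 bases before to 50 bases after the start. It was found in 1.24% of those of the 1.5-fold lower genes and in 1.15% of those of the 2-fold lower genes. In the list it was found in 2 of 21 promoters (9.52%), those of Egr2 and Zfp36. Neither is among the 10 lower members, Egr2 having a bound of -0.36 and Zfp36 no value.

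**Figure D3:**
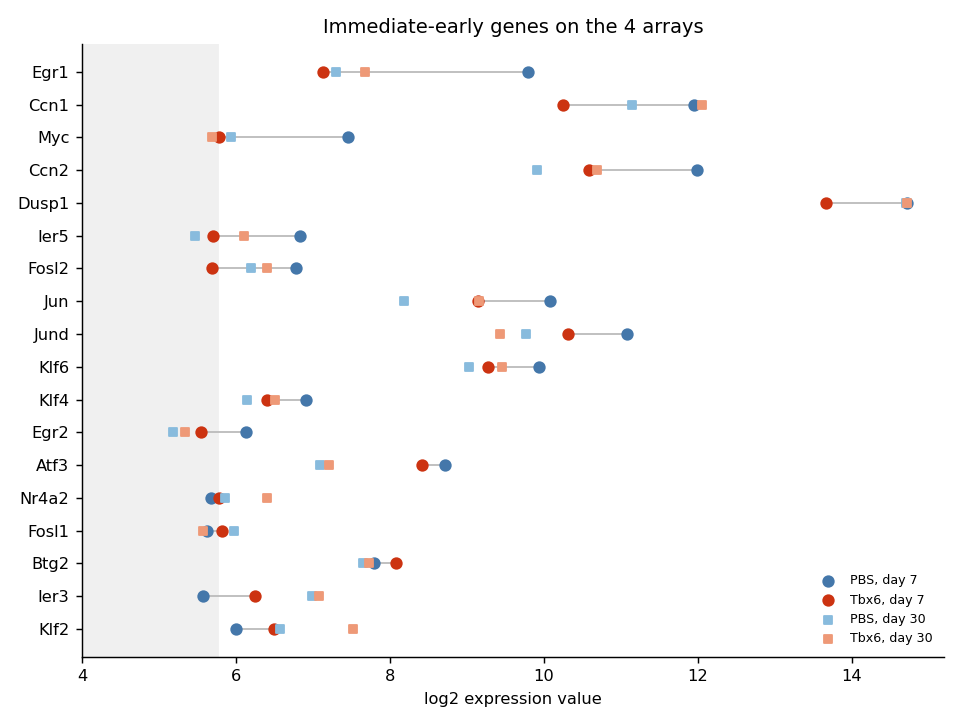
Log2 readings of the 18 counted immediate-early genes on the 4 arrays, ordered by the day 7 difference, with circles for day 7, squares for day 30 and the zone at or below background shaded. Egr1, Myc, Ccn2, Jun, Jund and Klf6 read highest after PBS at day 7.

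Some genes that share inducers with this group were lower too. Sgk1, a kinase induced by glucocorticoids and salt hormones, read 8.95 after PBS and 7.75 after Tbx6 (-1.20), and Per1, a clock gene with the same inducer, read 8.62 and 7.43 (-1.19). Of 15 counted glucocorticoid targets, however, 4 were lower and 2 higher, against 7.8% and 6.51% over all probe sets, and the median was 0.06. Zbtb16, a strongly glucocorticoid-induced repressor, read 8.81 and 9.54 (0.73), and Mt1, a metallothionein, read 15.16 and 15.80 (0.64). In the clock list 0 of 14 were higher and 2 were lower, Per1 and Per3 (-0.77), and the median was -0.07.

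Targets of p53 held 5 lower and 0 higher genes among 13 counted, against 7.8% and 6.51% over all probe sets. Their median was -0.17, or -0.56 over members above background on both arrays. Gadd45g, a growth-arrest gene, differed by -1.29, Zmat3 by -1.12, Trp53inp1 by -0.92 and Plk2 by -0.77. Cdkn1a, which blocks cyclin-dependent kinases, read 9.88 after PBS and 9.22 after Tbx6 (-0.66). Several of these respond to stress signals other than p53 as well.

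Among genes of antigen presentation those of class I molecules had the lowest differences. B2m, the light chain of class I molecules, read 17.45 after PBS and 15.60 after Tbx6 (-1.85), and the heavy chain gene H2-K1 read 10.72 and 8.95 (-1.77). H2-D1, the other classical heavy chain, read 7.20 and 6.51 (-0.69). Day 30 readings of B2m were 16.62 and 17.25, which placed the Tbx6 array of day 7 lowest of the 4. The list had 0 higher and 3 lower among 8 counted genes, against 6.51% and 7.8% over all probe sets, with a median of -0.25. Class II genes H2-Aa and H2-Ab1 differed by 0.11 and 0.14. Heavy chain genes vary in sequence between mice, and the effect of such variants on these probes was not tested.

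Interferon-stimulated genes were mostly unreadable, with 16 of 31 at background on both arrays. Of 15 counted, 3 were lower, the guanylate-binding protein genes Gbp3 (at least -1.02) and Gbp7 (-0.83) and the RNA sensor Ifih1 (-0.75). Xaf1, a partner of apoptosis inhibitors, was higher, at 7.55 after PBS and 8.56 after Tbx6 (1.004). That made 1 higher and 3 lower, against 6.51% and 7.8% over all probe sets, and the median was -0.33.

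The longest block of neighbouring genes with 1 direction lay on chromosome 2. Along the genes in RefSeq order, 19 successive counted probe sets of 18 genes were all at least 1.5-fold lower after Tbx6, with differences from -2.71 to -0.70 and a median of -1.04. They belong to a family of zinc finger genes, a class whose proteins often silence transposable elements through a KRAB domain. In all, 10 runs of 3 or more such neighbours were found along the genome, 3 higher and 7 lower, and the next longest held 5.

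Gm14403 had the largest difference of the run, at 14.25 after PBS and 11.54 after Tbx6 (-2.71), followed by Gm6710 (-1.84) and Gm14295 (-1.75). The median reading of the 19 at day 7 was 14.19 after PBS and 12.88 after Tbx6, against 15.93 and 15.27 at day 30. Each of the 19 read higher on both day 30 arrays than on either day 7 array. At day 30, 8 of them were lower after Tbx6 and 0 higher, against 5.27% and 5.99% of all probe sets counted then. Their median at day 30 was -0.51. The genes beside the block did not share it: Prelid3b on 1 side differed by 0.01 and Ppp1r3d on the other by -0.06.

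Members of the block are near copies of one another, so 1 probe set can read several of them and the 19 values are not independent. Their promoters show how close they are. Of 15 with a promoter in the RefSeq table (build GRCm38.p6), 13 held an identical stretch of 54 bases, found in 28 of all 32851 promoters (0.0852%). Windows of 80 bases around it, upstream of the start, were the same at 75 to 80 positions in each pair. The 4 windows below, all on the + strand, agree at 74 of 80 positions, and capitals mark the 6 positions that differ among them. They are those of Gm14403 (chr2:177498077-177498156), Gm6710 (chr2:175869141-175869220), Gm14295 (chr2:176798478-176798557) and Gm14322 (chr2:177759136-177759215), which spread over the range of differences, Gm14322 being the least lower at -0.70.
Gm14403: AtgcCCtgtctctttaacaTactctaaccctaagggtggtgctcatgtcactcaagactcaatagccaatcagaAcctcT
Gm6710: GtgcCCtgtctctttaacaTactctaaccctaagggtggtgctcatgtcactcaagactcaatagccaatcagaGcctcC
Gm14295: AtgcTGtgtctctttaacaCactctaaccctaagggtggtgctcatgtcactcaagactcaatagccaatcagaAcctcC
Gm14322: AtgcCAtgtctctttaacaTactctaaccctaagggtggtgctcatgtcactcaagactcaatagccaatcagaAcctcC

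**Figure D4:**
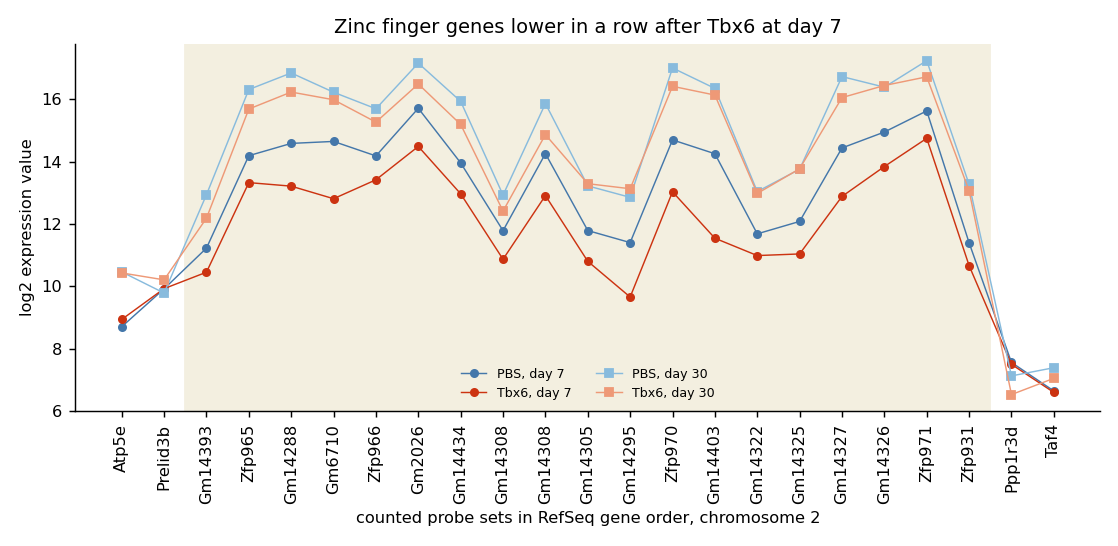
Log2 readings on the 4 arrays of the 19 probe sets of the zinc finger run (shaded) and of 2 counted probe sets on each side, in RefSeq gene order along chromosome 2. Within the shaded run the Tbx6 array of day 7 lies below the PBS array of day 7 at each probe set, and both day 30 arrays lie above; outside it the day 7 arrays meet.

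On the high side, Scd4, a stearoyl-CoA desaturase known from heart, read 7.80 after PBS and 11.60 after Tbx6, a difference of 3.81. At day 30 it ran the other way, at 8.49 and 6.98. Its relative Scd1, the common desaturase of fat and liver, differed by -0.38 at day 7. The lipid synthesis list as a whole had a median of -0.13. It held 2 higher and 2 lower of 17, against 6.51% and 7.8% over all probe sets. Me1, the malic enzyme that supplies reducing power, was the other higher gene (1.001), against Thrsp (-1.04) and the elongase Elovl5 (-0.67).

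Baiap2l1, an adaptor that bends membranes with actin, read 7.54 after PBS and 11.34 after Tbx6 (3.80). Its day 30 readings were 11.98 and 12.56, so the PBS array of day 7 read lowest of all arrays. Mid1, a ubiquitin ligase on microtubules whose gene spans the boundary of the pseudoautosomal region in laboratory mice, read 10.06 and 13.45 (3.39), against 8.25 and 9.19 at day 30. Haus8, part of the augmin complex that branches spindle microtubules, read 6.41 and 8.80 (2.39). Mid1 and Haus8 were both highest after Tbx6 at day 7.

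Retsat, which saturates retinol, read 8.46 after PBS and 10.87 after Tbx6 (2.41). The other 11 counted genes of retinoid metabolism did not follow it: 0 of them passed 1.5-fold upward and 1 downward, the retinol carrier Rbp4 (-0.68). Adam22, a catalytically inactive metalloprotease relative, read 6.07 and 8.07 (2.01), and Ppdpf, named for the differentiation of pancreatic progenitors, read 6.65 and 8.84 (2.19). Adam22 and Ppdpf stood near 6 to 7 on the 3 other arrays.

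Further single genes completed the 15 highest. Carns1, which makes the muscle dipeptide carnosine, read 6.78 and 8.53 (1.74). Olfml2a, a matrix protein, read 6.73 and 8.34 (1.61), Scarb2, a lysosomal membrane protein, 10.35 and 11.94 (1.59), and Lca5, a protein of cilia, 7.57 and 9.14 (1.57). All 4 read lower on both day 30 arrays than on the Tbx6 array of day 7. Rcor3, a corepressor, read 9.18 and 10.93 (1.75) at 1 probe set, but 3 of its 5 counted probe sets were lower after Tbx6, and the gene as a whole has no direction.

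Some genes of iron handling were among the higher ones. Hamp, which encodes hepcidin, the hormone that closes the iron exporter, read 11.11 after PBS and 13.08 after Tbx6 (1.97), and its copy Hamp2 read 9.34 and 10.05 (0.71). Hjv, the co-receptor that drives hepcidin and is made in liver and muscle, read 12.08 and 12.94 (0.86). The importers Slc11a2 and Slc39a14 differed by 1.28 and 0.97. In all, 5 of 16 counted iron genes were higher and 0 lower, against 6.51% higher over all probe sets, with a median of 0.20, or 0.091 over members above background on both arrays. The SD of the difference over the 8 spikes, each a single probe set, was 0.19. The transferrin receptor Tfrc differed by -0.41. All 5 read higher on both day 30 arrays than on the PBS array of day 7, and Hamp and Hamp2 are near copies whose probes may read each other.

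Among genes of fatty acid oxidation 6 were higher and 0 lower of 26, against 6.51% and 7.8% over all probe sets, with a median of 0.27. The other 20 stayed within 1.5-fold, among them Cpt1b, which admits fatty acids to mitochondria, at -0.05 and Etfdh, which passes their electrons on, at -0.25. Acot1 and Acot2, near-identical thioesterases that release fatty acids from coenzyme A, differed by 1.10 and 0.79. Ucp3, the mitochondrial carrier of muscle, differed by 0.76, Ech1 by 0.75, Mlycd, which removes the brake malonyl-CoA, by 0.74, and Hadh by 0.60. At day 30 the list had 5 higher and 0 lower of 26, against 5.99% and 5.27% over all probe sets counted then. The comparisons of the 2 days use separate arrays.

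Oxidative phosphorylation followed with a median of 0.20 over 36 genes. There 3 were higher and 0 lower, against 6.51% and 7.8% over all probe sets. The higher ones were Ndufs7 (0.81) and Ndufb8 (0.72) of complex I and Uqcrc1 (0.59) of complex III. Uqcrc2, the partner of Uqcrc1, differed by -0.51. Chaperones had 3 higher and 0 lower of 14, against the same shares, and a median of 0.28. Their higher genes were the mitochondrial co-chaperonin Hspe1 (0.72), Hspb1 (0.67) and the Hsp90 activator Ahsa1 (0.63). For these 3 lists the median lay within the range of the spikes, whose highest difference was 0.43. That range is of single probe sets, so it cannot show how far a median over a list would vary.

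Detoxification genes were split. Abcb1a, the drug efflux pump, read 7.98 after PBS and 10.04 after Tbx6 (2.06). Its day 30 readings were 9.91 and 9.95, so the PBS array of day 7 read lowest of all arrays. Aldh1b1, a mitochondrial aldehyde dehydrogenase, read 5.84 and 7.73 (1.89), and Akr1b8, an aldose reductase relative, differed by 1.07. Gsr, which regenerates glutathione, read 9.82 and 8.54 (-1.28), and Gclc, which starts its synthesis, differed by -0.61. In all 6 of 17 were higher and 2 lower, against 6.51% and 7.8% over all probe sets, with a median of 0.15.

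**Figure D5:**
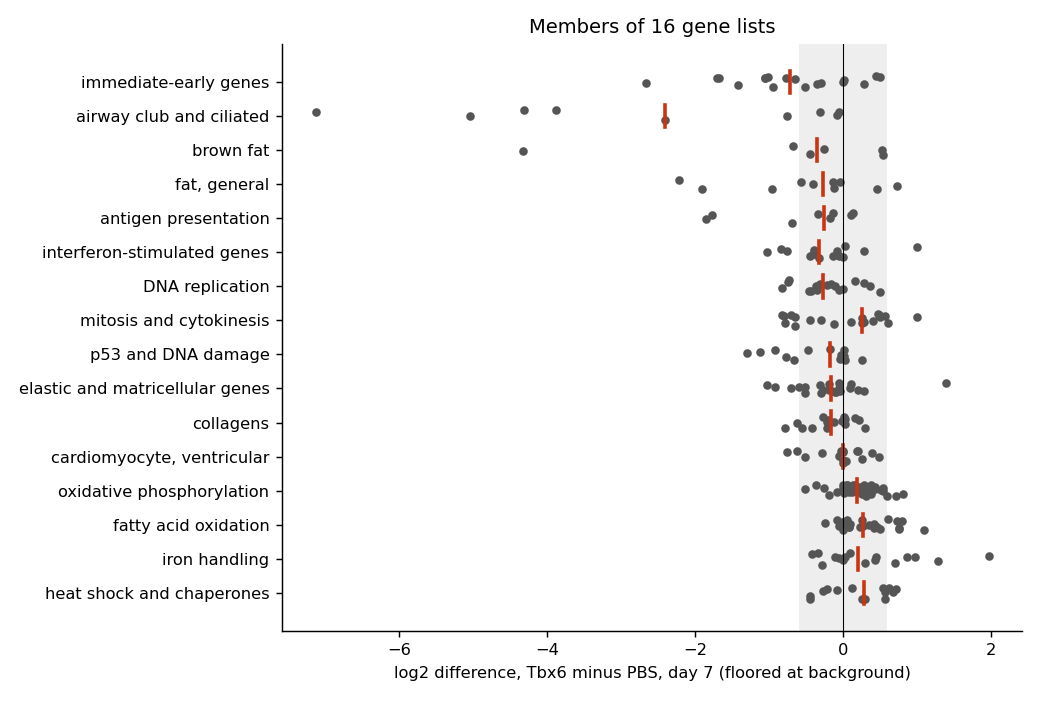
Floored log2 difference at day 7 of each counted member of 16 gene lists, 1 point a gene, with the list's median as a red bar and differences under 1.5-fold shaded. The medians run from -2.40 for the airway list and -0.71 for immediate-early genes to 0.28 for chaperones, and those of most lists lie within the shaded zone. Most airway points are bounds of genes counted through the PBS reading alone.

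Cell cycle genes past 1.5-fold were more often lower than higher in each list, while the list medians differed in sign. The shares over all probe sets were 6.51% higher and 7.8% lower. The list of G1 cyclins and cell cycle brakes had 2 higher and 3 lower of 14 and a median of -0.18. DNA replication genes had 0 higher and 3 lower of 18 and a median of -0.26. The lower ones were the helicase subunits Cdc45 (at least -0.82) and Mcm2 (-0.74) and the clamp loader Rfc4 (-0.72). Mitosis genes had 2 higher and 6 lower of 21, yet a median of 0.26 and a mean of 0.0089. The checkpoint kinase Bub1b (at least -0.83), the motor Kif11 (-0.80), Top2a (-0.79), Hmmr (-0.70), Ccna2 (-0.65) and Ect2 (-0.64) were lower. Birc5, the survivin gene, read 5.55 after PBS, at background, and 6.79 after Tbx6, a difference of at least 0.996, and the kinetochore motor Cenpe differed by 0.61.

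The histone genes were picked out after their values were seen, and whether their classes differ was not tested. Each class had a median below 0. Past 1.5-fold, 6.51% of all counted probe sets were higher and 7.8% lower. Among 11 counted H4 genes 5 were lower and 0 higher, with a median of -0.52. H4c4, a replication-dependent histone gene, read 9.75 after PBS and 7.80 after Tbx6 (-1.95). Among 12 H2A genes 1 was higher and 1 lower, among 11 H2B genes 0 and 2, and among 9 H3 genes 0 and 1. The medians of these 3 classes were -0.22, -0.22 and -0.24. Of 2 linker histone genes, H1f1 differed by -0.87 and H1f2 by 0.25. Histone genes are near copies of one another, so the values of single genes are uncertain.

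Heart muscle genes themselves stood close together. Of 16 ventricular muscle genes 0 were higher and 2 lower, against 6.51% and 7.8% over all probe sets, with a median of 0.00. Myh7, the slow fetal myosin, read 16.27 after PBS and 15.52 after Tbx6 (-0.75), and Irx4, a ventricular homeobox gene, read 8.34 and 7.73 (-0.61). Many of these genes read near the upper end of the scale, where the differences are compressed. Among adult isoforms, 2 of 18 were higher, the inward rectifier channel Kcnj2 (at least 1.04) and the mitochondrial creatine kinase Ckmt2 (0.97), and 0 were lower.

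Ion channels gave larger single values. Cacna1g, a T-type calcium channel of the young heart and pacemaker, read 9.19 after PBS and 7.37 after Tbx6 (-1.83), and at day 30 it was at background after PBS, at 5.79, and near it after Tbx6, at 5.97. Kcnj11, the pore of the ATP-sensitive potassium channel, read 9.35 and 10.59 (1.23). Of 14 counted channels 2 were higher and 1 lower, against 6.51% and 7.8% over all probe sets, with a median of -0.14.

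Growth factor genes had 1 higher and 4 lower of 24, against 6.51% and 7.8% over all probe sets. Fgf1, a fibroblast growth factor of muscle cells, read 11.17 after PBS and 9.19 after Tbx6 (-1.97). Its day 30 readings were 12.93 and 12.95, so the Tbx6 array of day 7 read lowest of all arrays. Nrg1, a ligand of ErbB receptors from the endocardium, differed by -0.78, the angiopoietin gene Angpt1 by -0.75 and the insulin receptor substrate gene Irs2 by -0.68. Fgf16, a heart growth factor, differed by 0.64. The median was -0.08.

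Matrix genes had 1 higher and 4 lower of 22 among the elastic and matricellular class, against 6.51% and 7.8% over all probe sets. The median of that class was -0.17. Tnc, the tenascin of remodelling matrix, differed by -1.03, Thbs1 by -0.91, the cross-linking enzyme Lox by -0.70 and Postn, which activated fibroblasts secrete, by -0.60. Efemp1, a fibulin, read 9.12 after PBS and 10.52 after Tbx6 (1.399). Of 16 collagens 0 were higher and 2 lower, the basement membrane genes Col4a1 (-0.79) and Col15a1 (-0.62). Cd44, the hyaluronan receptor, read 9.65 and 7.70 (-1.95), against 7.26 and 8.13 at day 30.

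Genes of the vessels stood mostly within 1.5-fold. Tek, the angiopoietin receptor of endothelial cells, read 11.09 after PBS and 10.17 after Tbx6 (-0.91), and the apelin receptor gene Aplnr read 10.66 and 9.99 (-0.67). They were the 2 lower of 15 endothelial genes, with 0 higher and a median of -0.04, against 7.8% lower and 6.51% higher over all probe sets. Of 12 smooth muscle and pericyte genes 1 was lower, the myosin light chain kinase gene Mylk (-0.78), and 0 were higher. Of 13 fibroblast genes 0 were higher and 1 lower, Postn.

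Around the fatty acid genes, metabolism gave scattered values. Ppargc1a, the coactivator that drives the making of mitochondria, read 15.12 after PBS and 15.81 after Tbx6 (0.70), while the peroxisomal thiolase gene Acaa1a differed by -0.999. In the citric acid cycle Suclg1 differed by 0.80 and Sdha by -0.68, the only 2 of 23 counted genes past 1.5-fold. In glycolysis and glycogen metabolism 2 of 22 were higher, the muscle bisphosphatase Fbp2 (1.21) and the glycogen synthase Gys1 (0.65), and 1 was lower, the lactate carrier Slc16a1 (-0.60). Cholesterol synthesis had 0 higher and 2 lower of 13, Hmgcs1 (-0.84) and Fdft1 (-0.70). All these counts stand beside 6.51% higher and 7.8% lower over all probe sets.

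Blood genes past 1.5-fold were lower, and those within it went both ways. Alas2, the enzyme that starts haem synthesis in red cell precursors, read 12.52 after PBS and 10.73 after Tbx6 (-1.79), and Pf4, a platelet chemokine, read 6.82 and 5.95 (-0.87). Of 5 counted genes of the class 2 were lower and 0 higher past 1.5-fold, against 7.8% and 6.51% over all probe sets. The red cell anion exchanger gene Slc4a1 differed by 0.25, the platelet integrin gene Itga2b by 0.43 and the platelet tubulin gene Tubb1 by at least -0.45. Among 10 counted macrophage genes 1 was higher, the Fc receptor chain Fcer1g (1.06), and 0 were lower, with a median of -0.18.

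The same promoters were searched for the half-site that T-box factors bind. The letters AGGTGTGA were found on either strand in 0.895% of the promoters of 7489 counted probe sets, in 3 of 482 higher (0.622%) and in 4 of 564 lower (0.709%). The higher genes that hold it were Dmwd, Bloc1s2 and Krtap5-1, and the lower ones were Sgk1, Copa, Cidec and Cdkn1a. The core AGGTGT, which every AGGTGTGA contains, was found in 12.2% of all, 14.9% of the higher and 10.8% of the lower. At 2-fold it was found in 15 of 79 higher and 12 of 87 lower, and AGGTGTGA in 0 of 79 higher and 2 of 87 lower (2.3%). A match of letters in this window does not show binding.

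At day 30, 8939 probe sets were counted, with 535 (5.99%) at least 1.5-fold higher and 471 (5.27%) lower after Tbx6. Of the probe sets past 1.5-fold at day 7, 570 of the higher and 660 of the lower were counted at day 30, while the shares below are of all of them and so have another base than 5.99% and 5.27%. Of the 602 higher at day 7, 57 (9.47%) were also higher at day 30 and 37 (6.15%) were lower. Of the 721 lower at day 7, 41 (5.69%) were lower at day 30 and 65 (9.02%) were higher. Both sets thus held more probe sets higher than lower at day 30, as did all probe sets counted then. The arrays of the 2 days also differ in age and in the readings of Eif2s3y and Uty.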

How the data were processed

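Heart RNA was measured on mouse Clariom S arrays, 1 array for each injection and day. Per the labels, the authors normalised the arrays with SST-RMA in Affymetrix Expression Console 1.4 (version per the submitters' processing notes) and deposited 1 value per probe set. The log2 base of the deposited values is not stated and was taken from their range. All 4 columns were used as deposited. Gene symbols came from the platform annotation, and all 19572 named probe sets matched RefSeq (GRCm38.p6) by Entrez identifier, for 19505 genes.

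Differences, floors at the highest background probe set and counts past 1.5-fold were computed in pandas 2.3.3 and numpy 2.4.6 under Python 3.11.15, and figures drawn in matplotlib 3.10.9. With 1 array a side no test was possible and the number of arrays limits the precision. Each difference was set beside control probe sets and beside 64 lists of cell types and pathways. On data simulated from the PBS readings, with little noise and a set shift of 2-fold, the counting step recovered 100 of 100 probe sets per direction. This checks the code alone and says nothing about how certain the counts are. The members and the lists were chosen with earlier results of these data known. The rule named Tbx6, the 15 highest and 15 lowest differences, up to 6 members of each list past 1.5-fold with up to 3 more that define it, the sex-linked genes and all genes of the airway, brown fat and immediate-early lists. Predicted genes could be passed over. Others are said to be picked out after their values were seen. The genes that hold a promoter motif and the neighbours of the zinc finger run follow from those searches. Alternatives were the floor, the filter, quantile normalisation, centring, the fold, 1 probe set a gene and means for medians.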

Additional observations from a re-analysis of the deposited data

Results flagged for a closer look

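Among the listed and top genes, 36 were at least 1.5-fold apart between the injections on both days. Of these, 24 ran in opposite directions on the 2 days and 12 in the same direction. Over all named probe sets past 1.5-fold on both days, 57 were higher on both and 41 lower on both. There, 37 were higher at day 7 and lower at day 30 and 65 the reverse, so the 2 kinds were close in number. The lists were chosen with earlier results of these data known. Of the 24, 22 were lower after Tbx6 at day 7 and higher at day 30, and 2 were the reverse. The difference between the days was not tested, and the days also differ in age and in the readings of Eif2s3y and Uty. Each set of values below is the day 7 difference followed by the day 30 difference.

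Among fat genes, Ucp1 had -4.32 and at least 2.29, Car3 had -2.22 and 1.48, Adipoq had -1.91 and 2.33, and Cidec had -0.96 and at least 1.83. Thrsp, a regulator of fat synthesis, had -1.04 and 0.61. Among immediate-early genes, Ccn1 had -1.70 and 0.91, Ccn2 had -1.41 and 0.78, and Jun had -0.94 and 0.97. Among glucocorticoid targets, Sgk1 had -1.20 and 1.09, and Per1 had -1.19 and 0.61. Irs2, of the growth factor list, had -0.68 and 0.70. Among matrix and receptor genes, Cd44 had -1.95 and 0.88, Thbs1 had -0.91 and 1.25, Lox had -0.70 and at least 0.68, Col15a1 had -0.62 and 0.71, and Postn had -0.60 and 0.69. Among immune and blood genes, B2m had -1.85 and 0.63, H2-D1 had -0.69 and 1.37, Ifih1 had -0.75 and 0.60, and Pf4 had -0.87 and 0.84. Tppp3 had -0.76 and 0.71, and Meox2 had -0.61 and 0.67. The reverse pair was Scd4, with 3.81 and -1.52, and the heart growth factor gene Fgf16, with 0.64 and -0.73.

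Signals also appeared in probe sets outside the comparison. Of 2634 unnamed transcript probe sets 966 were counted, 54 higher (5.59%) and 95 lower (9.83%). The lowest read 15.22 after PBS and 7.36 after Tbx6, a difference of -7.86, with 6.95 and 6.98 at day 30. With it, 7 unnamed probe sets whose identifiers name chromosome 2 were lower by over 7, in 2 distinct sets of readings, and like Cwc22 they were high on the PBS array of day 7 alone. A pair of unnamed probe sets whose identifiers name the Y chromosome read 10.98 after PBS and 14.52 after Tbx6, a difference of 3.54. At day 30 they read 9.58 after PBS and 10.13 after Tbx6, above background, unlike Eif2s3y and Uty. Which transcripts they read was not tested. The control probe sets that the annotation marks MG, 5222 negative and 1324 positive, had differences from -9.61 to 9.06. They were further apart than the named probe sets: 21.4% of the counted negative ones were higher and 19.3% lower past 1.5-fold, and of 1068 counted positive ones 111 were higher and 149 lower.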

How the results depend on the processing

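The counts kept within 1.5 times of those reported, 602 higher and 721 lower, under a floor at the 95th percentile of background, no floor, both readings above background, quantile normalisation, centring, 1 probe set a gene and the removal of probe sets near the ceiling. Without any filter they were 1576 and 1541, since readings at background then count, and at 2-fold they were 98 and 122. The higher share of the calls was 45.5% as reported and 44.5% to 50.6% otherwise. Without the zinc finger run, an alternative chosen after seeing the data, 702 were lower. Of 56 alternative medians of 14 lists, 45 moved by less than the SD of the 8 spikes (0.19) and 0 changed sign. The airway list went from -2.40 to -0.76 with both readings above background, to -1.55 without a filter and to -2.66 as a mean. Without a filter the immediate-early list was at -0.35 and the iron list at 0.44. As means, antigen presentation was at -0.59, mitosis at 0.0089, p53 targets at -0.40, general fat at -0.52 and brown fat at -0.77. With both readings above background p53 targets were at -0.56. The cause of these shifts was not tested. Leaving out a replicate could not be run with 1 array a group. No paired analysis was possible because each group holds 1 array, and a block for it leaves nothing to compare. The limits are the single array a side, the control without vector, the unstated log base, the compressed upper end of the scale, and 10331 probe sets at background on both arrays.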

Other observations

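Some genes not described above were readable on a single array. By a margin of over 1 on the log2 scale, 9 genes stood above background after PBS at day 7 and on no other array. Beside Cwc22 and the 3 secretoglobins these were Stfa2 and Stfa2l1, stefins of neutrophils, at 7.33 and 7.06 after PBS, Cd24a, a surface protein of young blood and epithelial cells, at 7.17, the DNA repair helicase gene Fancm at 6.87 and Zfp605 at 6.87. On the Tbx6 array of day 7 alone there were 2, the mitosis genes Birc5 (6.79) and Sgo1 (6.96). The PBS array of day 30 had 1 such gene and the Tbx6 array of day 30 had 4. In the other direction, 6 genes were at background after PBS at day 7 alone, among them Kcnj2 and the liver protein gene Ahsg, and 0 on the Tbx6 array of day 7.

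Of 4 counted secretoglobins on chromosome 7, 3 were higher and 1 lower after Tbx6. Scgb1b7 read 6.22 after PBS and 7.25 after Tbx6 (1.02), Scgb1b19 read 5.83 and 6.91 (1.08), and Scgb1b20 read 7.04 and 7.97 (0.93). The lower one was Scgb1c1, at 7.14 and 6.53 (-0.61). At day 30 the 3 higher ones read between 5.39 and 6.95. These 3 are near copies of one another, so their values are not independent. Of the other runs of neighbours, the longest was on chromosome 4, where Alpl, Ece1, Eif4g3, Hp1bp3 and Ddost were lower by a median of -0.69, and Zbtb5, Polr1e, Fbxo10 and Tomm5 were higher by a median of 0.78.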
